A study of Mus musculus with 60 samples.

Results

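Benzo(a)pyrene (BaP) at 0.5 µM was compared directly with methylcholanthrene (MCA) at 2 µM after 120 h in Balb/c 3T3 cells, an immortalised line of mouse embryonic fibroblasts. The comparison rests on 6 arrays chosen by their labels, 3 for BaP and 3 for MCA, of the 60 in the series. The 60 arrays cover 4 chemicals (BaP, MCA, AAF and DAT) and the solvent DMSO at 24 h and 120 h, in a set of 30 arrays at doses taken from the literature and a set of 30 at doses described as IC20. All 6 arrays belong to the literature-dose set, and the 3 DMSO arrays of that set at 120 h give a reference level only. Cells of a single line were exposed as sub-confluent cultures in serum-containing medium. All groups received the same medium, and the label of the control group names DMSO alone. The labels call the arrays triplicates and do not say whether they came from separate cultures, and the p-values therefore rest on array-to-array spread that could be technical alone. The doses differ between the compounds, so at 120 h compound and dose cannot be told apart.

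BaP and MCA are polycyclic aromatic hydrocarbons and long-used experimental carcinogens. BaP is built of fused aromatic rings alone, while MCA carries a methyl group and a fused ring that is not fully aromatic. Both bind the Ah receptor, a transcription factor of the cytoplasm that moves to the nucleus with its ligand, pairs with Arnt and binds a short DNA core, GCGTG, near target genes such as those of cytochrome P450 family 1. Those enzymes in turn oxidise the hydrocarbons to metabolites that can bind DNA.

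The 250 bases before the annotated start of 3 Ah receptor targets that differed between the treatments are shown first, because Cyp1a1, Cyp1b1 and Tiparp are the direct readout of this receptor. Capitals mark the core GCGTG, or CACGC where it lies on the opposite strand. The sequences are those of RefSeq on GRCm38.p6, at chr9:57697363-57697612 (plus strand) for Cyp1a1, chr17:79715062-79715311 (minus strand) for Cyp1b1 and chr3:65528197-65528446 (plus strand) for Tiparp, each written 5′ to 3′ along the gene.
Cyp1a1: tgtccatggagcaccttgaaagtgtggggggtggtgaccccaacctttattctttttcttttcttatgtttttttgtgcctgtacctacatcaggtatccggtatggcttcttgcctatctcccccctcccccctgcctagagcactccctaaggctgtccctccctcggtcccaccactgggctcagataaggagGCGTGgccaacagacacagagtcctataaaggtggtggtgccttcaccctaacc
Cyp1b1: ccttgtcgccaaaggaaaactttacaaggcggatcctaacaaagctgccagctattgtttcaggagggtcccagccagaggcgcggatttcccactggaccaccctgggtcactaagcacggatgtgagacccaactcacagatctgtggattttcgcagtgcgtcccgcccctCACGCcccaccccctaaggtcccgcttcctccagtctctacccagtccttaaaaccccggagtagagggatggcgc
Tiparp: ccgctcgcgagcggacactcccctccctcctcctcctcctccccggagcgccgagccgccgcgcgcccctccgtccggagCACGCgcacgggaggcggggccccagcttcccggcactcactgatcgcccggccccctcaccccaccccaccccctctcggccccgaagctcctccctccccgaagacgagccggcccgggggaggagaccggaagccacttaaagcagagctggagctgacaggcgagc
The match ended 50 bases before the start of Cyp1a1, 72 before that of Cyp1b1 and 166 before that of Tiparp. Searched on both strands over the same window, the core was present in 30.9% of the 27025 promoters of the table and in 49.5% of the 9656 promoters of tested genes, so a match in itself is common. A marked core shows no binding by the receptor, and bases further upstream were not searched.

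The deposited values were linear array intensities, and all differences below are on the log2 scale after adding 16 and quantile normalization, which understates the change of genes with low intensities. A gene was represented by its probe set of highest mean, and 11957 genes passed the filter on low values. The median intensity of an array was 43.1 to 47.1 with BaP, 42.6 to 43.4 with MCA and 45.1 to 46.7 with DMSO. The 10 fibroblast markers on the array were above the array median in every group, with summed intensities of 44269 to 48834 for BaP, 49254 to 51853 for MCA and 55928 to 60602 for DMSO. None of the 8 endothelial markers was above the median in all arrays of a group, and 2 of 9 epithelial markers were, in every group, with Cdh1, Krt8 and Krt18 among those below. Of 8 macrophage markers, 5 were above the median in all arrays of every group, and Ptprc, Cd68 and Itgam were below. The summed macrophage marker intensity was 934 to 1066 with BaP, 829.6 to 911 with MCA and 849 to 948 with DMSO. Of the 7 adipocyte markers on the array, 1 was above the array median in all 3 BaP arrays and 2 in all 3 MCA arrays, and their summed intensity was 3445 to 3647 with BaP, 2035 to 2302 with MCA and 2587 to 3237 with DMSO. Nearly all of that sum was Lpl, at 3344 to 3510.0 with BaP, 1899 to 2174 with MCA and 2475 to 3115 with DMSO. Pparg differed by only 0.02 log2 units between BaP and MCA. The log2 ratio of the 3′ to the 5′ control probe sets of actin was 0.39, 0.42 and 0.51 with BaP and 0.27, 0.30 and 0.33 with MCA. For Gapdh the same ratio was -0.17 to -0.10 with BaP and -0.21 to -0.18 with MCA. The BaP arrays thus lay above the MCA arrays in both ratios, and the part of this shift, and of the adipocyte and macrophage markers, in the results was not tested. In such bulk RNA, fewer cells of a kind and less RNA per cell cannot be told apart.

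Between BaP and MCA at 120 h, 5199 of the 11957 genes (43.5%) passed the test (limma, Benjamini-Hochberg adjusted p under 0.05). Of these, 2664 (22.3% of genes tested) were higher with BaP and 2535 (21.2%) were lower. Most differences were small. At least 2-fold differences were found for 178 genes (1.49%), of which 139 (1.16%) were lower and 39 (0.326%) higher with BaP. The 3 arrays of one treatment all lay beyond the 3 of the other for 6155 genes (51.5%). Among the 139 genes at least 2-fold lower with BaP, the DMSO mean was nearer to BaP for 103 and nearer to MCA for 36, with a median distance from DMSO of 0.41 log2 units for BaP and 1.21 for MCA. Among the 39 higher genes the split was 17 nearer to BaP and 22 nearer to MCA, with median distances of 0.73 and 0.58. The genes at least 2-fold lower with BaP were thus mostly further from the solvent in the MCA cells than in the BaP cells.

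**Figure D1:**
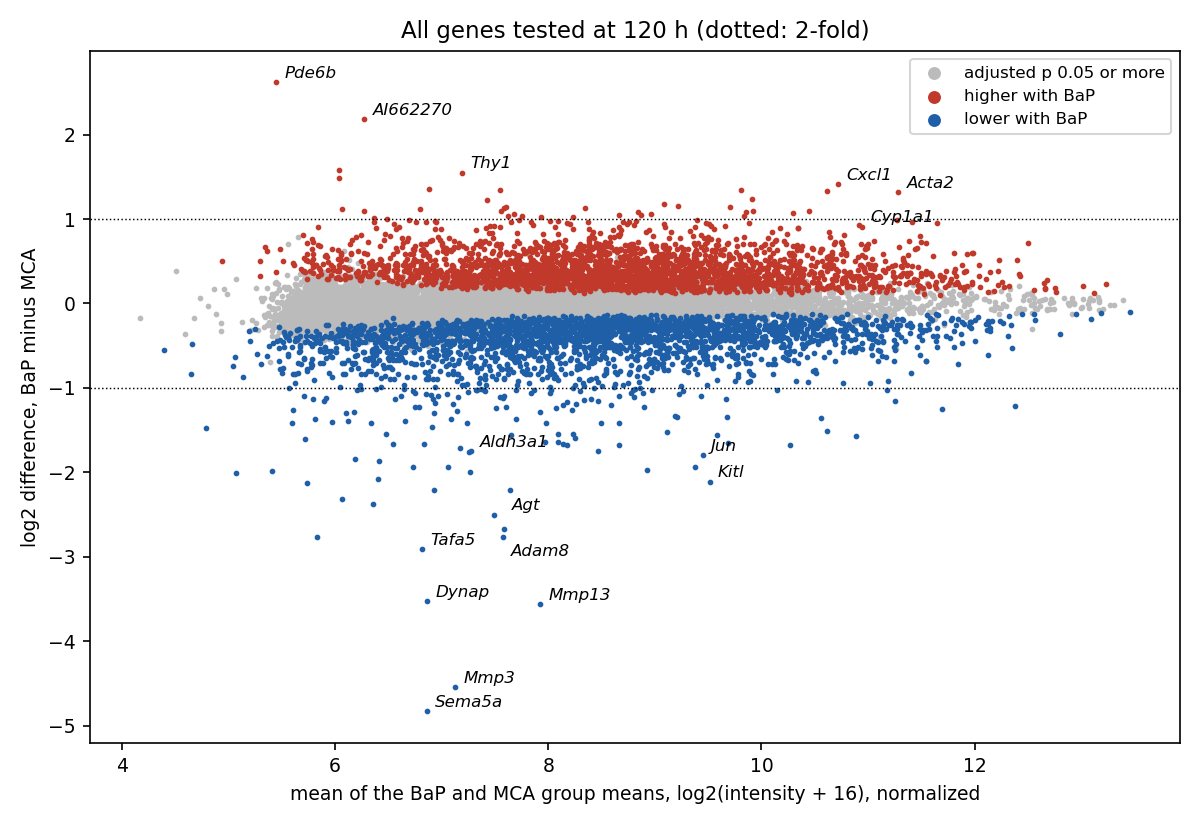
BaP minus MCA difference at 120 h (y axis, log2) against the mean level of the gene over the 6 arrays (x axis, log2 of intensity plus 16), 1 point per gene tested, with genes that passed the test coloured. The points reaching furthest from 0 lie below it, where Sema5a, Mmp3 and Mmp13 are found.

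The core Ah receptor targets were split between the treatments. Of 9 members of this battery, 7 had a probe set of their own and 5 passed the filter on low values. All 5 differed, 3 higher and 2 lower with BaP, against 43.5% passing among all genes. Cyp1a1, the classical inducible P450 of this receptor, had intensities of 2368, 2800.3 and 2588 with BaP, 1405, 1508 and 1359.7 with MCA, and 13.8, 15.6 and 16.1 with DMSO. Both treatments were far above DMSO, and every BaP array was above every MCA array. The difference was 0.91 ± 0.12 (SE, n = 3 against 3, 95% interval 0.67 to 1.15, adjusted p = 4.26e-07), or 1.88-fold. Cyp1b1, the related P450 typical of fibroblasts, measured 7347, 7309.6 and 7586 with BaP, 4401, 4775 and 4584 with MCA and 1404 to 1686 with DMSO. It was 1.65-fold higher with BaP (0.72 ± 0.06, adjusted p = 5.32e-10). Tiparp, an ADP-ribosyltransferase that restrains the receptor, was likewise ordered DMSO, MCA, BaP without overlap, at 789 to 907, 1575 to 1730.2 and 2231 to 2390.3. Its difference was 0.55 ± 0.05 (adjusted p = 4.16e-09).

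The 2 remaining battery genes, both encoding enzymes that detoxify reactive metabolites, ran the other way. Nqo1, a quinone reductase, measured 272, 318 and 342 with BaP, 606, 572 and 678 with MCA and 129, 149 and 162 with DMSO. Both treatments lay above DMSO, and the MCA arrays were the highest. It was 2.03-fold lower with BaP (-1.02 ± 0.13, 95% interval -1.28 to -0.76, adjusted p = 2.88e-07). Aldh3a1, an aldehyde dehydrogenase, measured 64.4, 76.9 and 76.1 with BaP, 270.1, 235 and 298 with MCA and 13.7 to 31.2 with DMSO. It was 3.36-fold lower with BaP (-1.75 ± 0.17, adjusted p = 6.15e-09). The receptor Ahr itself did not pass the test (-0.11, adjusted p = 0.303), and among 5 tested genes of the receptor and its partners only the co-repressor Nrip1 did, at -0.35, and it did not pass without BaP replicate 3 (-0.24, adjusted p = 0.0773). Of 6 receptor targets searched for the core (these 5 and Ahrr), 5 had a promoter in the table and 4 held it. Nqo1 was the one without a match.

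Nrf2 is the regulator of antioxidant enzymes, Nqo1 among them. Of 20 other genes of the Nrf2 and glutathione list, 8 were higher and 1 lower with BaP, against 22.3% and 21.2% of all genes, and their median was 0.04. Among the higher ones were Gclc (0.47) and Gclm (0.32), the subunits of the enzyme that limits glutathione synthesis, Txnrd1 (0.41), a thioredoxin reductase, and Osgin1 (0.60). Gsr, glutathione reductase, was the lower one (-0.41). Hmox1, heme oxygenase, gave -0.03 (adjusted p = 0.843). Gclm did not pass without BaP replicate 1, BaP replicate 2 or MCA replicate 3 (adjusted p = 0.128, 0.0521 and 0.108). With the replicate numbers as a block the lower count became 5, and without any 1 of BaP replicate 1, MCA replicate 1 and MCA replicate 2 it was 0, while without BaP replicate 3 it was 2. Of 11 glutathione transferases, 6 were higher and 2 lower with BaP, with a median of 0.21 and Mgst3 the lowest at -0.96.

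**Figure D2:**
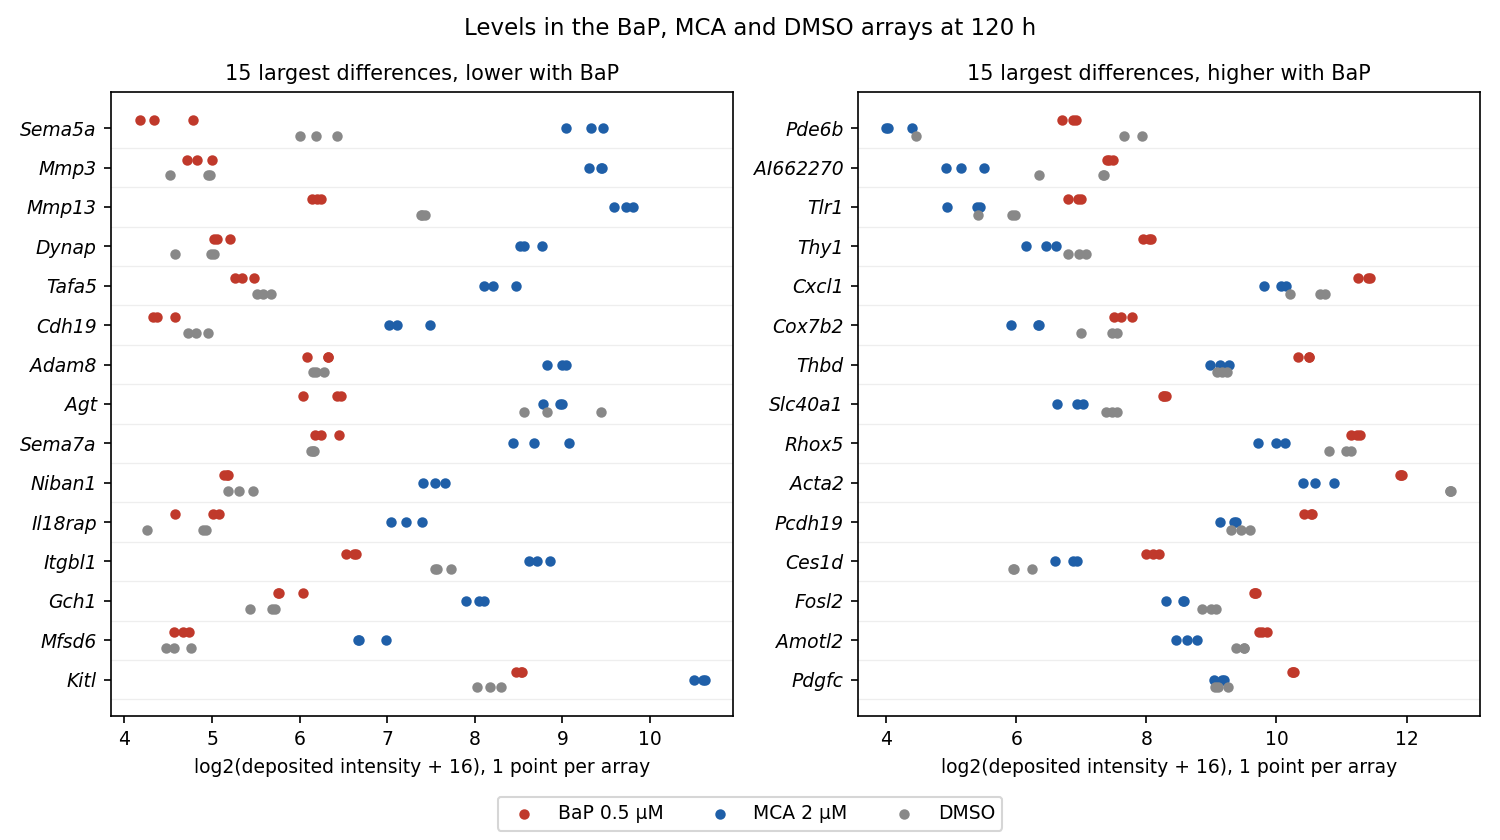
Deposited level (x axis, log2 of intensity plus 16) of the 15 genes with the largest difference in each direction, 1 point per array for the 3 BaP, 3 MCA and 3 DMSO arrays at 120 h. In the left panel the MCA arrays stand apart on the high side, with the DMSO arrays mostly near BaP, and Agt is the exception. The DAT and AAF arrays are not drawn.

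Among the genes lower with BaP, Sema5a, a membrane semaphorin, had the largest difference. Its intensities were 11.6, 4.22 and 2.04 with BaP, 628, 509 and 692 with MCA and 70.3, 48.2 and 56.7 with DMSO. The BaP arrays were below and the MCA arrays above DMSO, a difference of -4.83 ± 0.28 (95% interval -5.42 to -4.25, adjusted p = 5.75e-13) or 28.5-fold. The related Sema7a, a semaphorin anchored by a lipid, measured 59.7, 56.2 and 71.2 with BaP and 331, 393 and 522 with MCA, while DMSO gave 54.2 to 55.6. Here BaP was close to the solvent and the difference was -2.50 ± 0.20 (adjusted p = 1.31e-10).

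Mmp3 (stromelysin-1) and Mmp13 (collagenase-3), secreted metalloproteases that degrade matrix, followed Sema5a in size. Mmp3 measured 12.5, 10.2 and 15.9 with BaP, 679, 614 and 685 with MCA and 6.95, 15.1 and 15.6 with DMSO. BaP and DMSO overlapped near the bottom of the scale and MCA was far above both, a 23.2-fold difference (-4.54 ± 0.33, adjusted p = 3.58e-11). Mmp3 was not high with MCA alone at 120 h, since its mean level (log2) was 8.59 with DAT at 50 µM and 6.67 with AAF at 25 µM, against 9.40 with MCA, 4.86 with BaP and 4.80 with DMSO. The AAF arrays were spread, at 20, 121 and 219, and the lowest was close to DMSO. Mmp13 measured 54.5, 57.3 and 59.6 with BaP, 831, 754 and 880.0 with MCA and 152, 151 and 156 with DMSO. For Mmp13 the solvent lay between the treatments, and the difference was 11.8-fold (-3.56 ± 0.17, adjusted p = 2e-14). Both genes belong to a row of metalloprotease genes on chromosome 9 that runs, in RefSeq order, Mmp13, Mmp12, Mmp1b, Mmp3, Mmp1a, Mmp10 and Mmp8. The other 5 did not pass the filter on low values and were not tested. Their intensities reached 35 at most, in Mmp10, with 30.5 to 35 for MCA and 12.8 to 27.7 for BaP. Mmp1a gave 7.65 to 14.7 with MCA and 1.48 to 4.52 with BaP, while Mmp12, Mmp1b and Mmp8 overlapped between the treatments. Mmp9, a gelatinase encoded elsewhere, had the same order as Mmp13, but with DMSO nearer to MCA. It measured 133, 150.4 and 158 with BaP, 437, 462 and 488 with MCA and 349 to 377 with DMSO (-1.64 ± 0.09, adjusted p = 2.92e-13). Its mean level (log2) was 7.27 with BaP, 8.59 with DMSO and 8.91 with MCA. Adam8, a membrane protease, measured 51.7 to 64 with BaP, 436 to 511 with MCA and 55.2 to 61.6 with DMSO (-2.77 ± 0.21, adjusted p = 8.27e-11).

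The promoters of Mmp3 and Mmp13 are printed because these genes stand among the leading differences and are textbook targets of AP-1, the dimer of Jun and Fos proteins that binds TGANTCA. Capitals mark that motif, searched on both strands, in RefSeq's GRCm38.p6 sequence at chr9:7445572-7445821 and chr9:7272264-7272513, both on the plus strand.
Mmp3: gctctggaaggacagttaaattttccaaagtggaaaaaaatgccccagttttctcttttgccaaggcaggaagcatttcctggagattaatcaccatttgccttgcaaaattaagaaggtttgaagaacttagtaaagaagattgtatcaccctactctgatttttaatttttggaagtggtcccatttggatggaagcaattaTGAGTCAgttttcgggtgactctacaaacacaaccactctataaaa
Mmp13: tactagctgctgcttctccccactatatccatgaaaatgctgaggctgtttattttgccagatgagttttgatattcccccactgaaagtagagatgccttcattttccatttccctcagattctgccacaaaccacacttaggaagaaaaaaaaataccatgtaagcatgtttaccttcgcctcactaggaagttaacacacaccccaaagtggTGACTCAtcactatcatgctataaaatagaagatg
The motif began 46 bases before the start of Mmp3 and 35 bases before that of Mmp13. It was found in 7.82% of all promoters of this length and 5.51% of those of tested genes. Among the 15 genes with the largest differences lower with BaP than with MCA, 13 had a promoter in the table and 3 held the motif, Mmp3, Mmp13 and Tafa5. Among the 15 in the other direction, 10 had one and Pde6b alone held it. A match is a description of letters and shows no binding.

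The AP-1 subunits themselves moved in opposite directions. Jun measured 365, 375 and 367 with BaP, 1376, 1191 and 1333 with MCA and 331 to 419 with DMSO. BaP was at the solvent level and MCA well above it (-1.80 ± 0.13, adjusted p = 4.1e-11, 3.49-fold). Fosl1 measured 183, 187 and 188 with BaP, 639, 632 and 636 with MCA and 36.7 to 62 with DMSO. Here both treatments were above DMSO and MCA the more so (-1.75 ± 0.24, adjusted p = 1.39e-06). Fosl2, the closest relative of Fosl1, was the reverse: 789, 803 and 799 with BaP, 298, 364 and 365 with MCA and 445 to 520.0 with DMSO. It was 2.26-fold higher with BaP (1.18 ± 0.06, adjusted p = 1.6e-13). Myc (-0.07, adjusted p = 0.711) and Egr1 (0.22, adjusted p = 0.185) did not pass, although Egr1 did with the replicate numbers as a block (adjusted p = 0.0147). Over the 16 early response factors tested, 3 were higher and 3 lower with BaP. The share that passed, 37.5%, was near the 43.5% of all genes. The higher count fell to 1 without normalization, with each array centred on its median, without BaP replicate 1 and without MCA replicate 2, and was 5 with the replicate block.

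Genes that report signalling through the EGF receptor and the ERK kinases were mostly lower with BaP. Of 16 tested ligands and feedback genes, 10 were lower and 1 was higher, against 21.2% and 22.3% of all genes, with a median of -0.55. The medians against DMSO were 0.34 for BaP and 0.84 for MCA. Ereg, the ligand epiregulin, measured 97.7, 115 and 114 with BaP, 286, 239 and 261 with MCA and 30.1 to 46 with DMSO (-1.24 ± 0.17, adjusted p = 1.16e-06). Dusp6, a phosphatase that switches ERK off, measured 89.4 to 100.5 with BaP, 186 to 219 with MCA and 43 to 60.3 with DMSO (-1.05 ± 0.14, adjusted p = 8.49e-07). Both genes were graded DMSO, BaP, MCA without overlap. Spry2, an inhibitor of receptor tyrosine kinase signals, differed from this grading: its BaP arrays (115, 116 and 121) lay within the DMSO range of 113 to 149, and its MCA arrays were at 239.7, 274 and 329 (-1.22 ± 0.19, adjusted p = 5.65e-06).

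Secreted and surface proteins outside the proteases were also among these genes. Kitl, the ligand of the Kit receptor, measured 338, 355 and 352 with BaP, 1537, 1434 and 1563 with MCA and 245 to 299.6 with DMSO (-2.11 ± 0.13, adjusted p = 7.26e-13, 4.31-fold). The BaP arrays were just above the solvent, without overlap, and the MCA arrays far above it. Cx3cl1, the chemokine fractalkine, was 436, 477 and 409.6 with BaP and 1267 to 1349 with MCA, with DMSO at 353 to 431 (-1.56 ± 0.09, adjusted p = 2.65e-13). Agt, angiotensinogen, was the exception among the 15 genes with the largest differences lower with BaP than with MCA, since its DMSO level lay with MCA. Its BaP arrays read 70, 73 and 49.9, its MCA arrays 494, 486 and 424, and its DMSO arrays 680.4, 439 and 361 (-2.67 ± 0.19, adjusted p = 3.58e-11). In the other 14 of these 15 genes DMSO was nearer to BaP. They included Itgbl1, a secreted protein with repeats like those of integrins, with 76.5 to 83.7 for BaP, 378 to 447 for MCA and 171 to 196 for DMSO (-2.21 ± 0.09, adjusted p = 4.51e-16). The rest were Dynap (-3.52), the secreted Tafa5 (-2.91), the cadherin Cdh19 (-2.77), Niban1 (-2.38), the interleukin-18 receptor subunit Il18rap (-2.32), Gch1 (-2.21), the first enzyme of tetrahydrobiopterin synthesis, and Mfsd6 (-2.13). High levels were not particular to MCA. With DAT at 50 µM the mean level (log2) was 8.76 for Sema5a, 7.18 for Cdh19 and 8.47 for Adam8. These genes had 9.28, 7.22 and 8.96 with MCA and 6.17, 4.81 and 6.16 with DMSO. Tafa5 with DAT (6.06) was instead nearer to DMSO (5.55) than to MCA (8.28).

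Genes of DNA replication had the largest share of members lower with BaP among the lists. Of 29 tested, 24 were lower with BaP and 1, Orc1, was higher, against 21.2% and 22.3% of all genes. Their median was -0.67 against -0.01 for all genes. Both treatments were above DMSO, by a median of 0.58 for BaP and 1.18 for MCA. Rfc3, a subunit of the clamp loader, measured 181, 197 and 213 with BaP, 409, 424 and 504 with MCA and 179.7 to 189.9 with DMSO (-1.19 ± 0.11, adjusted p = 2.45e-09). Its BaP arrays overlapped those of DMSO. Rrm2, the regulated subunit of ribonucleotide reductase, was instead graded, at 240.0 to 274 with DMSO, 443 to 491 with BaP and 902 to 1071 with MCA (-1.09 ± 0.15, adjusted p = 1.17e-06). Rfc4 (-1.13), the helicase component Cdc45 (-1.02), the dUTPase Dut (-1.01) and thymidine kinase Tk1 (-0.98) were lower as well. The other of the 2 Cdc45 probe sets did not pass, at 0.11. The 4 members that did not pass included Mcm2 (0.10) and Rrm1 (-0.06).

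The mitosis list ran the same way with smaller differences. Of 28 genes, 21 were lower and 2 higher with BaP, against 21.2% and 22.3% of all genes, with a median of -0.39. Hmmr, a spindle-associated protein, measured 209.6 to 244 with BaP, 473 to 559 with MCA and 131 to 163 with DMSO (-1.15 ± 0.11, adjusted p = 3.71e-09). Cdk1, the mitotic kinase, measured 1087, 1268 and 1056 with BaP, 1541 to 1670.4 with MCA and 574 to 679 with DMSO (-0.47 ± 0.07, adjusted p = 9.06e-06). Other members of the mitosis list, included in these counts, departed from this order. Top2a, the topoisomerase of dividing cells, was higher with BaP (1749 to 1862 against 1420.0 to 1491, 0.34 ± 0.06, adjusted p = 3.26e-05). Mki67, the antigen used to count cycling cells, had a difference of -0.01 (95% interval -0.24 to 0.22, adjusted p = 0.956), and both treatments (647 to 857) were above DMSO (336 to 367). Of 18 D cyclins, Cdks and inhibitors, 2 were higher and 5 lower, and of 10 genes linked to quiescence, 3 were higher and 3 lower. The cyclin list, with 38.9% passing, was near the 43.5% of all genes.

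Glycolysis and oxygen-response genes were also mostly lower with BaP. Of 24 tested, 15 were lower and 3 higher, against 21.2% and 22.3% of all genes. Their median was -0.31, while the medians against DMSO were close to 0 for both treatments (-0.02 for BaP and 0.06 for MCA). The glucose transporter Slc2a1 (-0.57), the kinases Pgk1 (-0.45) and Pkm (-0.44) and the prolyl hydroxylase Egln3 (-0.91) were lower. Ldha, lactate dehydrogenase, measured 2149.6 to 2414 with BaP, 3218 to 3529 with MCA and 2229 to 2394 with DMSO (-0.52 ± 0.07, adjusted p = 4.21e-07). Hk2, the inducible hexokinase, was higher with BaP at 0.77. Vegfa, the vascular growth factor, did not pass (-0.35, adjusted p = 0.0537) but lay near the threshold. It passed with the replicate block (adjusted p = 0.0159), with pseudocount 64 (0.0464), with only the 6 arrays (0.0285) or the 15 arrays at 120 h (0.0451) in the fit, and without BaP replicate 3 (0.0196).

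The largest differences in the other direction were smaller and more mixed in function. Cxcl1, a neutrophil chemokine, measured 2426, 2701 and 2770.1 with BaP, 880.0, 1119 and 1064 with MCA and 1167 to 1697 with DMSO. BaP lay above and MCA below the solvent, a 2.65-fold difference (1.41 ± 0.10, 95% interval 1.20 to 1.61, adjusted p = 1.92e-11). Thbd, the anticoagulant surface protein thrombomodulin, measured 1275, 1425 and 1439 with BaP, 488 to 599 with MCA and 527 to 589 with DMSO (1.34 ± 0.09, adjusted p = 4.33e-12). Pdgfc, a growth factor for fibroblasts, gave 1196 to 1219 with BaP, 512 to 569 with MCA and 518 to 594 with DMSO (1.14 ± 0.07, adjusted p = 2.8e-12). For both genes MCA overlapped the solvent. Thy1, a surface protein that marks fibroblasts, measured 231, 254 and 246 with BaP, 54.6, 81.6 and 71.9 with MCA and 94.8 to 118 with DMSO (1.55 ± 0.12, adjusted p = 7.03e-11). Fibroblast markers did not move together, since Cd34 (-1.27) and S100a4 (-1.21) were lower with BaP. Slc40a1, the iron exporter ferroportin, was ordered like Thy1, at 288 to 298, 82.4 to 114 and 150.3 to 171 (1.34 ± 0.10). Pde6b, a phosphodiesterase best known from the retina, had the largest value in this direction (2.62 ± 0.56, adjusted p = 0.000368), but its DMSO arrays ranged from 5.96 to 229 and its MCA arrays from 0.00672 to 5.03. The rest of the 15 were AI662270 (2.18), the innate receptor Tlr1 (1.58), Cox7b2 (1.35), the homeobox gene Rhox5 (1.33), the protocadherin Pcdh19 (1.24), the carboxylesterase Ces1d (1.22), Fosl2, the Hippo-pathway scaffold Amotl2 (1.16) and Acta2.

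Contractile and matrix genes differed in both directions. Acta2, smooth muscle actin and the marker of activated fibroblasts, measured 3799, 3905 and 3844 with BaP, 1337, 1879 and 1524 with MCA and 6469 to 6601 with DMSO. Both treatments were below the solvent, and MCA the further (1.32 ± 0.10, adjusted p = 5.75e-11, 2.5-fold). Lox, the enzyme that crosslinks collagen, was at the solvent level with BaP (3702 to 3809 against 3535 to 4027) and at 1824 to 2084 with MCA (0.97 ± 0.08, adjusted p = 5.32e-10). Ccn1, a matricellular protein, measured 3357, 3392 and 3625 with BaP and 1665 to 1906 with MCA, with DMSO at 2638 to 2997 (0.99 ± 0.08, adjusted p = 6.72e-11). Postn, the matrix protein periostin, ran the other way at far lower levels than the solvent in both treatments: 162, 181 and 182 with BaP, 289.8, 391 and 384 with MCA and 1186 to 1756 with DMSO (-1.03 ± 0.18, adjusted p = 3.92e-05). Of 9 contractile genes, 5 were higher and 2 lower with BaP, against 22.3% and 21.2% of all genes. Of 19 matrix proteoglycans and matricellular proteins, 10 were higher and 6 lower, with a median of 0.24. The proteoglycan Lum was among the lower ones, at 4.16 to 6.19 with BaP, 66.1 to 68.2 with MCA and 37.3 to 48.8 with DMSO (-1.98 ± 0.16). Nearer to the shares of all genes, collagens and their processing enzymes gave 7 higher and 5 lower of 22, with Col1a1 at 0.05, and TGF-beta ligands, receptors and targets gave 8 higher and 4 lower of 18. Of 13 matrix proteases and inhibitors tested, 3 were higher and 4, Mmp3, Mmp13 and Mmp9 among them, were lower.

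Genes of class I antigen presentation were higher with BaP in 7 of 11 cases and lower in none, with a median of 0.16. The shares over all genes, for this list and those that follow, were 22.3% higher and 21.2% lower. The peptide transporter subunit Tap2 (0.82), the trimming peptidase Erap1 (0.75), the immunoproteasome subunit Psmb10 (0.58) and the loading factor Tapbp (0.46) led, whereas B2m was at -0.05. Only 4 were higher without normalization or with each array centred on its median. Of 25 interferon-stimulated genes, 10 were higher and 3 lower with BaP, with Rsad2 (0.93), Gbp2 (0.65) and Ifit2 (0.59) ahead. The lower count was 1 without BaP replicate 1 and 0 without MCA replicate 2, and ran from 0 to 6 under the alternatives other than the 2-fold minimum. Chemokines and inflammation genes were divided, 8 higher and 6 lower of 22. Of 12 genes of fatty acid synthesis, 7 were higher and 2 lower with BaP, with the desaturase Fads1 at 0.85, and the lower count was 1 without BaP replicate 1 or MCA replicate 3. Under the alternatives other than the 2-fold minimum that count ran from 0 to 3. The sterol list had 4 higher and 5 lower of 22 (3 lower without normalization, 1 with all 60 arrays in the fit), among them the efflux pump Abca1 (0.74) and the isomerase Idi1 (-0.65). With 40.9% passing, the sterol list was near the 43.5% of all genes.

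Targets of p53, the regulator of the response to DNA damage, had a median difference of -0.01, the same as all genes. Of 29 tested, 10 were higher with BaP (6 with each array centred on its median) and 7 lower, against 22.3% and 21.2% of all genes. Gadd45a, a growth-arrest gene, measured 442, 539 and 443 with BaP, 177, 236 and 197 with MCA and 316 to 416 with DMSO (1.13 ± 0.10, adjusted p = 1.81e-09). Its MCA arrays were all below the solvent. Tigar (0.85), Plk2 (0.78) and the repair factor Xpc (0.52) were also higher, whereas Psrc1 (-0.75) and Ccng1 (-0.49) were lower. Cdkn1a, the p21 inhibitor of cell-cycle kinases and the best-known target, measured 1027 to 1205 with BaP and 1158 to 1347 with MCA. It did not pass (-0.14, adjusted p = 0.236), though it did with the replicate block (adjusted p = 0.0134), and its other probe set passed as lower with BaP, at -0.57. Mdm2 did not pass either by its brightest probe set (0.05, adjusted p = 0.428), whereas the 2 others of its 3 probe sets passed as higher with BaP, by up to 0.51. DNA repair and checkpoint genes were evenly divided, 8 higher and 8 lower of 27.

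Among stress genes, Trib3 (0.71) and Ddit3 (0.69), targets of the amino acid and unfolded protein response factor Atf4, were higher with BaP. That list had 7 higher and 3 lower of 22 (6 lower with the replicate block). Under the alternatives other than the 2-fold minimum its lower count ran from 0 to 6. Heat shock genes gave 1 higher and 3 lower of 10, heme synthesis and breakdown 4 higher and 3 lower of 10, the Bcl2 family 4 higher and 2 lower of 12, and the insulin-like growth factor axis 3 higher and 2 lower of 9. Over all genes the shares were 22.3% higher and 21.2% lower, or 43.5% passing. Heat shock genes (40% passing) and the Atf4 list (45.5%) were near that share. Of the marker lists, 3 of 8 fibroblast markers were higher and 3 lower. Of 2 adipocyte markers 1, Lpl (0.74), was higher, and none of 2 epithelial or 5 macrophage markers passed. The higher fibroblast markers were Thy1 (1.55), Ddr2 (0.51) and Fap (0.42), and the lower ones Cd34 (-1.27), S100a4 (-1.21) and Vim (-0.11). This fibroblast list shares only part of its members with the 10 markers summed above.

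**Figure D3:**
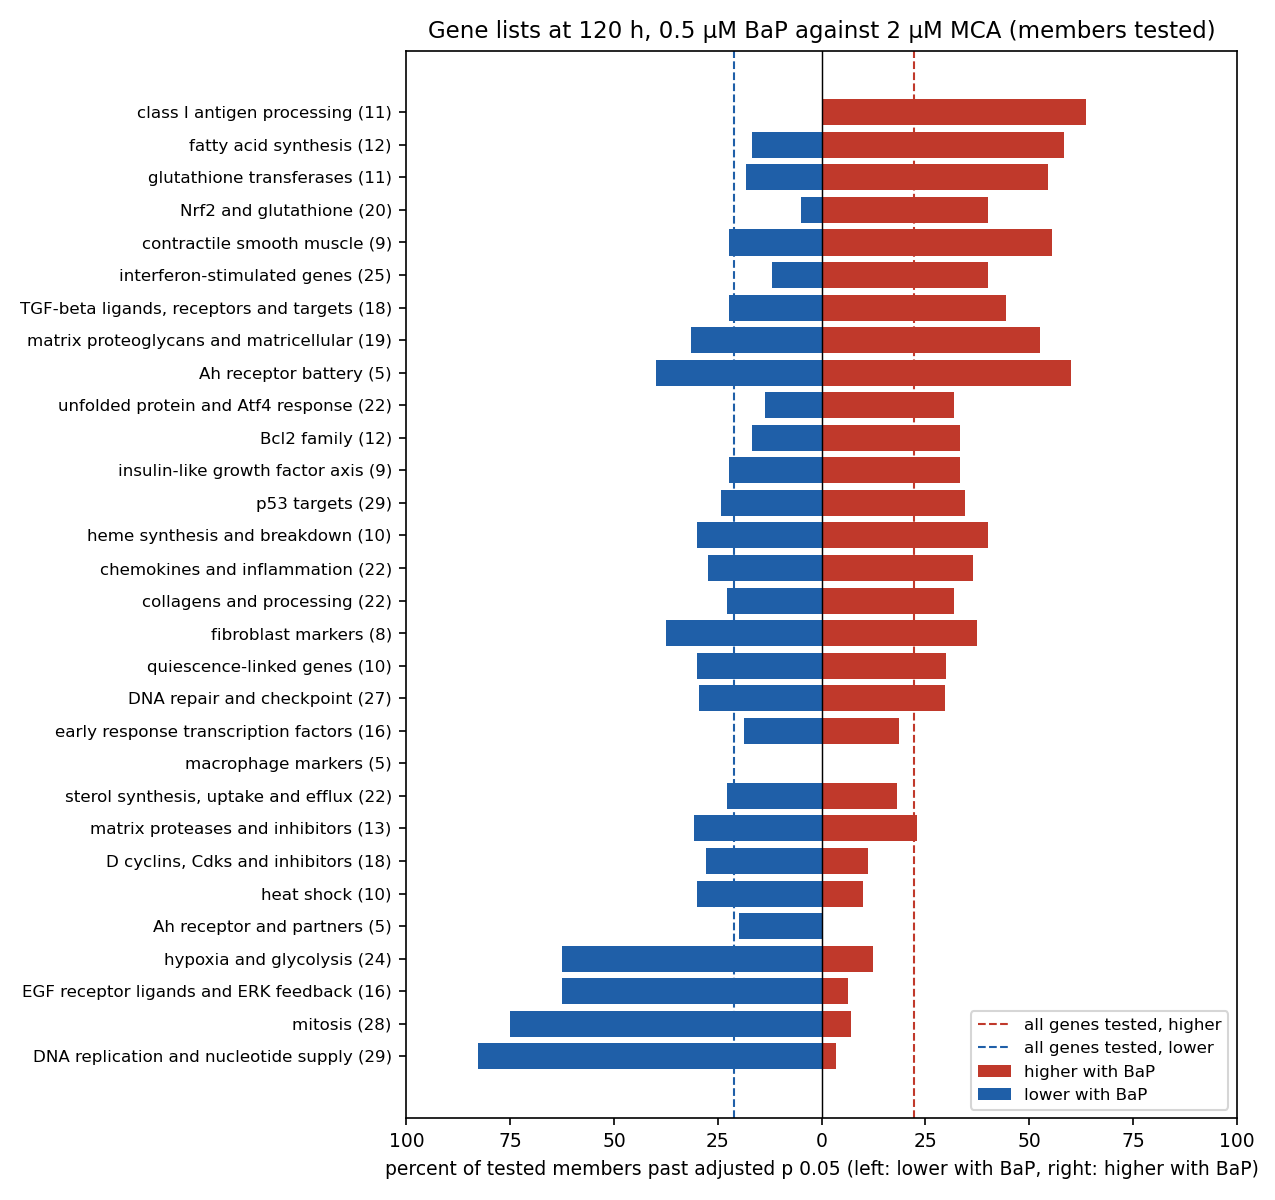
Share of tested members of each gene list that were higher (right of 0) and lower (left of 0) with BaP than with MCA at 120 h, in percent, with the shares over all genes tested as dashed lines. DNA replication, mitosis and EGF receptor genes lie mostly on the lower side.

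Fewer genes separated the treatments at the earlier time. At 24 h, with the same doses, 378 genes (3.16%) differed, and the difference at 120 h was itself changed from that at 24 h for 3425 genes (28.6%), 1635 (13.7%) in the positive direction, towards higher with BaP, and 1790 (15%) in the negative one. Of the 30 genes described above as the 15 largest in each direction, 29 changed with time, Pde6b being the exception, and 5 passed the test at 24 h. Of those, Ces1d (0.58), Cox7b2 (0.54), Slc40a1 (0.49) and Tlr1 (0.49) were higher with BaP at both times, while Pcdh19 was lower with BaP at 24 h (-0.28, adjusted p = 0.0267). At 24 h Mmp3 read 19.1 to 30.4 with BaP and 31.6 to 35.6 with MCA, and Sema5a 6.33 to 11.8 and 8.29 to 27.4. The high level of both genes in MCA cells was thus seen at 120 h and not at 24 h. Interferon-stimulated genes had a median of -0.36 at 24 h against 0.10 at 120 h. Of the 25 tested, 16 changed with time, against 28.6% of all genes. Rsad2 passed the test at both times with opposite signs (-0.51, adjusted p = 0.0362 at 24 h).

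Of the Ah receptor targets, Nqo1 was the one that passed the test at both times with opposite signs. Nqo1 at 24 h read 1145, 1121 and 1220.5 with BaP and 827, 759 and 663 with MCA, which is higher with BaP (0.61 ± 0.13, adjusted p = 0.00511), and the change to 120 h was -1.63 ± 0.18 (adjusted p = 2.08e-07). Aldh3a1 read 119 to 144 and 71.8 to 117 at 24 h (0.50 ± 0.17, adjusted p = 0.119) and changed by -2.25 ± 0.24 (adjusted p = 1.45e-07). Cyp1a1 read 1733 to 1830.0 with BaP and 1528 to 1801 with MCA at 24 h (0.10 ± 0.12, adjusted p = 0.778) and changed by 0.81 ± 0.16 (adjusted p = 0.000487). The P450 gene thus had overlapping levels at 24 h and separate ones at 120 h.

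The set at IC20 doses holds both compounds at the same dose, 0.1 µM, at 120 h, and was analysed within that set, whose median residual SD was 0.203 against 0.112 in the literature-dose set. This was the only matched pair of doses among the 120 h arrays. Only 10 of 11384 genes (0.0878%) differed there. Cyp1a1 read 2476, 2049 and 2871 with BaP and 8641, 8967 and 9233 with MCA, a difference of -1.90 ± 0.17 (95% interval -2.25 to -1.55, adjusted p = 3.81e-07). Tiparp read 4113, 4741 and 4628 with BaP and 8591, 8206 and 8663 with MCA (-1.14 ± 0.14, adjusted p = 6.31e-05). The DMSO arrays of this set at 120 h read 37.3 to 57.8 for Cyp1a1 and 2620.4 to 2990.5 for Tiparp. In the literature-dose set they read 13.8 to 16.1 and 789 to 907, so intensities cannot be compared between the sets. Within each set, MCA gave the higher level of both targets at equal dose, whereas BaP at 0.5 µM gave the higher level against MCA at 2 µM. The other genes called were Rsad2 (1.07), Csmd3 (0.98), Ifit1 (0.81), Ccl5 (0.59), Rpl22l1 (0.53) and Usp18 (0.46), higher with BaP, and Efnb1 (-0.76) and Adamts4 (-0.73), lower. Of the 30 leading genes, 25 were tested at 0.1 µM and 0 passed. For Mmp3 the difference was 0.09 (95% interval -0.42 to 0.60), for Mmp13 0.23 (-0.31 to 0.78), both with an adjusted p of 1. Nqo1 (-0.39, 95% interval -0.63 to -0.16, adjusted p = 0.528) did not pass. With the replicate block, 94 genes passed, including Cyp1b1 (-0.30, adjusted p = 0.00299) and Fosl2 (-0.48, adjusted p = 0.00192).

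**Figure D4:**
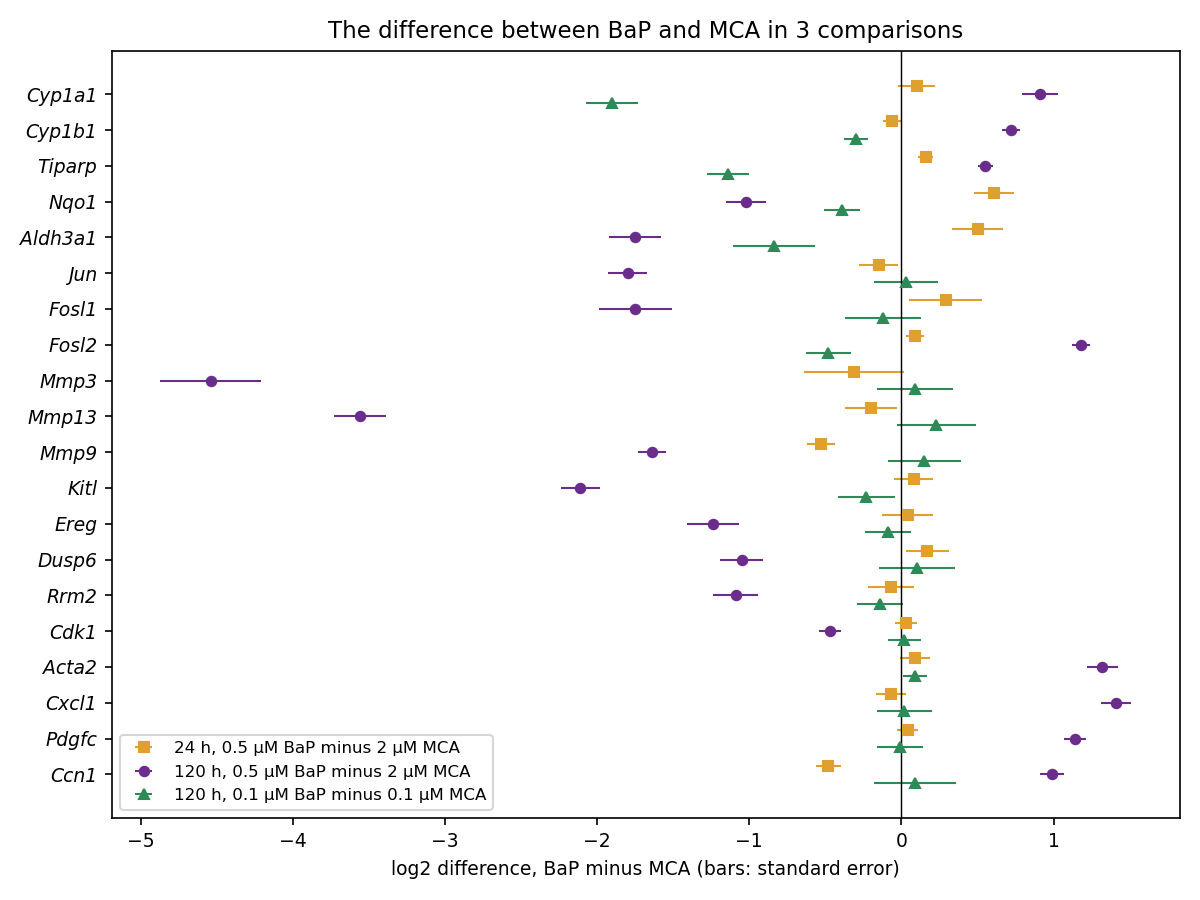
BaP minus MCA difference (x axis, log2, bars for the standard error) of 20 named genes at literature doses after 24 h and 120 h and at 0.1 µM after 120 h. Cyp1a1 and Tiparp are on the positive side at literature doses after 120 h and on the negative side at 0.1 µM, and Mmp3 and Mmp13 are far below 0 only at literature doses after 120 h.

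The shares of genes higher and lower with BaP differed between chromosomes, mostly through small differences. RefSeq placed 11935 of the genes tested on a chromosome. Of 408 genes on chromosome 12, 47.1% were lower and 2.94% higher with BaP, against 21.2% and 22.3% over all chromosomes, with a median difference of -0.204. Relative to the mean of the DMSO arrays, the median of its genes was -0.136, -0.047 and -0.042 in the BaP arrays, 0.171, 0.118 and 0.152 in the MCA arrays and -0.028 to 0.023 in the DMSO arrays. With its genes divided in order into 5 bins, every bin had 40.2% to 53.7% lower. Chromosome 17 was the clearest case in the other direction, with 37.8% higher and 7.45% lower with BaP and a median of 0.139. Its MCA arrays lay at -0.135 to -0.099 and its BaP arrays at -0.010 to 0.059. Chromosomes 7 (median 0.123, 36.3% higher) and 19 (0.110, 37.7% higher) followed, and on the lower side chromosome 16 (-0.131, 33.9% lower).

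The array medians of BaP and MCA did not overlap on 10 of 20 chromosomes, 5 with BaP above (5, 6, 7, 17 and 19) and 5 with BaP below (8, 12, 14, 15 and 16). Some chromosomes were divided within themselves. On chromosome 5 the first 3 of 5 bins had 45.5%, 47.4% and 45.5% higher with BaP, while in the last 2 bins 29.5% and 35.7% were lower. On chromosome 14 the last bin stood out, with 55.7% lower and a median of -0.290. The chromosome medians of the BaP minus MCA difference spanned -0.204 to 0.139 at literature doses after 120 h, -0.047 to 0.028 after 24 h and 0.004 to 0.038 at 0.1 µM. Single arrays relative to the DMSO mean at 120 h spanned -0.136 to 0.067 with BaP, -0.136 to 0.171 with MCA and -0.040 to 0.039 with DMSO. Each DMSO array is part of that mean, which narrows its range. At literature doses after 120 h, the median of chromosome 12 relative to DMSO was 0.142 with MCA, 0.084 with DAT and 0.065 with AAF. With BaP it was -0.080. On chromosome 17 it was -0.110 with MCA, -0.098 with DAT, -0.036 with AAF and 0.026 with BaP. On chromosome 19 DAT (-0.082) was again near MCA (-0.099), while AAF was at -0.010. The shifts with MCA on these chromosomes were thus seen with DAT as well. Sema5a lies on chromosome 15, whose median was -0.086, far smaller than its own difference, and Mmp3, Mmp13 and Cyp1a1 lie on chromosome 9, which was not among the 10. DNA copy number was not measured here.

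**Figure D5:**
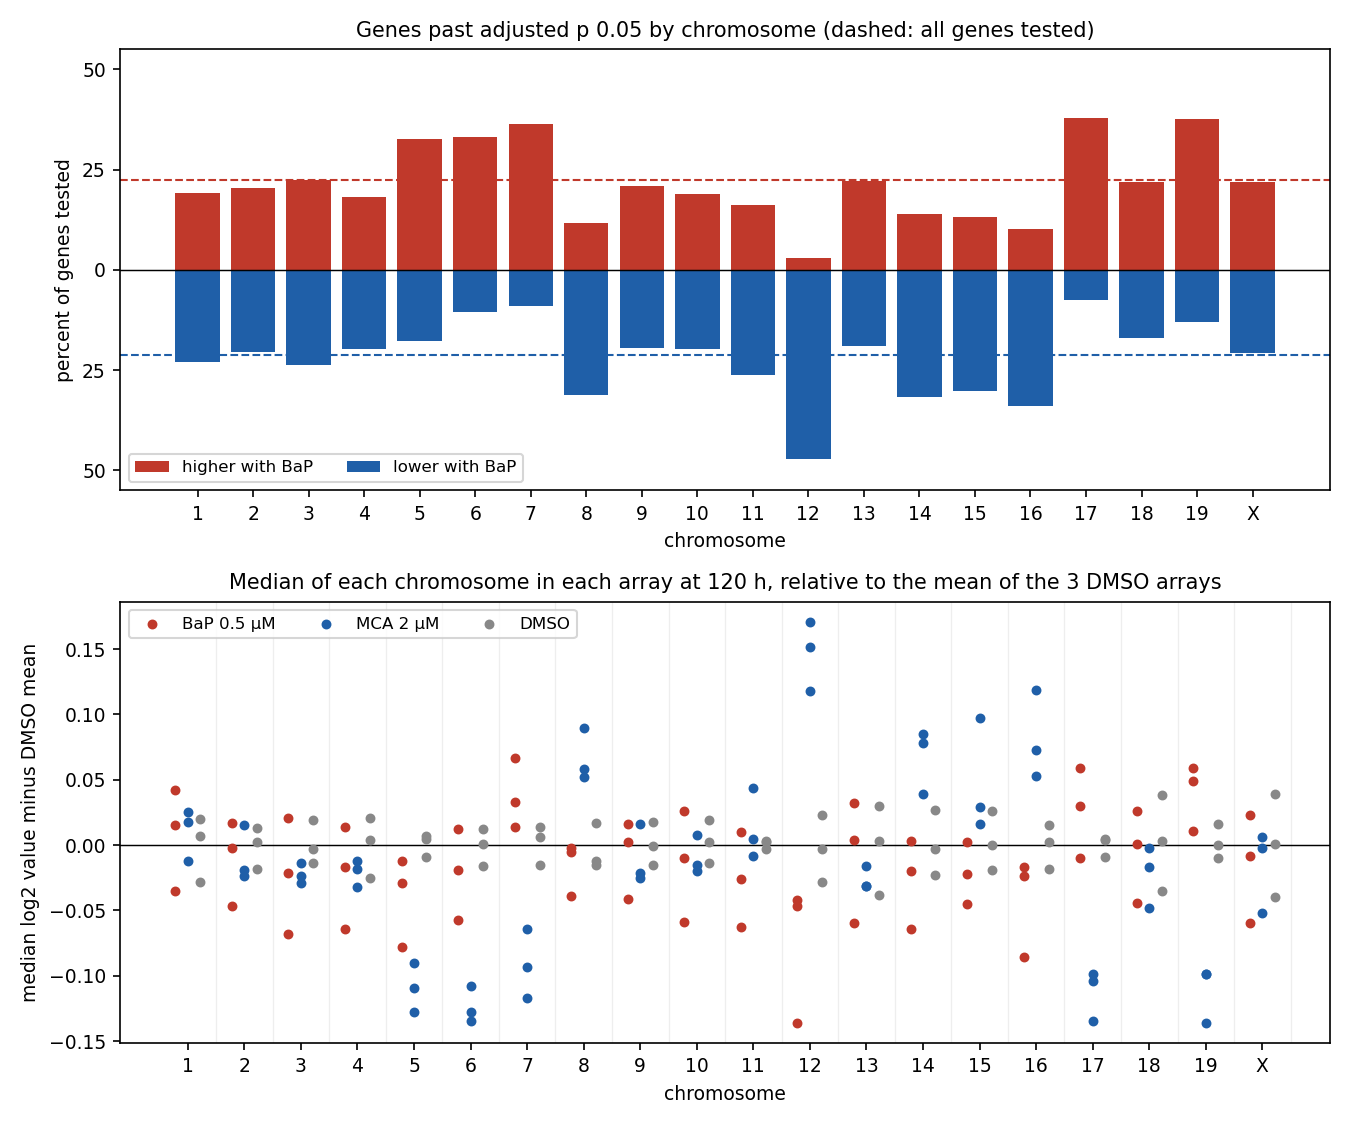
Percent of tested genes higher and lower with BaP on each mouse chromosome (top, dashed lines for all genes) and median log2 value of the chromosome's genes minus the DMSO mean in each of the 3 BaP, 3 MCA and 3 DMSO arrays at 120 h (bottom, 1 point per array). Among these arrays, those of MCA stand highest on chromosome 12. The DAT and AAF arrays are not drawn.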

How the data were processed

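RNA of Balb/c 3T3 cells was hybridised to single-colour Affymetrix arrays, 45101 probe sets on each of 60 arrays. The deposited values are linear intensities, made by the authors with GCOS per the submitters' processing notes. The version, the summarization and the scaling are not given in the sources used here, and only the number of arrays limits the precision.

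Intensities of the 30 literature-dose arrays were converted to log2 after adding 16 to the deposited value and quantile normalized. A platform table gave 1 gene symbol for 34958 probe sets, several for 932 and none listed for 9211, and of the former 204 had no current symbol. Genes had to exceed the array median in at least 3 arrays. Limma 3.58.1 in R 4.3.3 (lmFit, contrasts, eBayes with a trend) was fitted to 10 group means with 20 residual degrees of freedom, and two-sided p-values were adjusted by Benjamini-Hochberg over all genes tested, at 0.05. The comparisons were BaP minus MCA at 120 h, its change from 24 h, and BaP minus MCA at 0.1 µM within the IC20 set. DMSO was given no test. The fit was tested on simulated data.

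Named genes were the 15 largest differences in each direction whose arrays did not overlap, key genes and up to 4 passing members of each list, and the 6 largest changes with time. Members and lists were chosen with earlier results of these data known. List genes without a probe set of their own are not analysed here. Same-numbered arrays deviated together (r = 0.136, 0.298 and 0.280 at 120 h, and 0.287, 0.318 and 0.551 at 0.1 µM), which is a pairing read from the data and not from the labels. At 24 h the values were 0.200, 0.322 and 0.052, with 0.215 between BaP replicate 1 and MCA replicate 3, so the numbers were not taken to pair the 24 h arrays. Alternatives covered normalization, pseudocount, filter, arrays in the fit, probe sets and left-out replicates.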

Additional observations from a re-analysis of the deposited data

Results flagged for a closer look

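The difference between BaP and MCA differed between 24 h and 120 h for 133 of the 175 named genes, by a test of the change itself (limma). Over all genes tested the share was 28.6%. The 34 listed here come from the 15 largest differences in each direction, the 6 largest changes and the Ah receptor battery (adjusted p from 5.69e-11 to 0.0199). Values are the 120 h difference minus the 24 h difference on the log2 scale. Among genes lower with BaP at 120 h the change was -4.47 for Sema5a, -4.23 for Mmp3, -4.11 for Dynap, -3.36 for Mmp13, -2.96 for Adam8, -2.87 for Tafa5, -2.71 for Agt and -2.57 for Cdh19. It was -2.49 for Mfsd6, -2.45 for Il18rap, -2.38 for Niban1, -2.30 for Gch1, -2.29 for Sema7a, -2.19 for Kitl and -1.91 for Itgbl1. The detoxification genes Aldh3a1 and Nqo1, at 0.50 and 0.61 in favour of BaP after 24 h, changed by -2.25 and -1.63.

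Among genes higher with BaP at 120 h the change was 1.52 for Pcdh19, 1.48 for Cxcl1, 1.45 for AI662270, 1.39 for Amotl2, 1.25 for Thbd, 1.25 for Thy1, 1.24 for Rhox5 and 1.23 for Acta2. It was 1.10 for Pdgfc, 1.09 for Tlr1, 1.08 for Fosl2, 0.85 for Slc40a1, 0.81 for Cox7b2 and 0.64 for Ces1d. The Ah receptor targets Cyp1a1, Cyp1b1 and Tiparp changed by 0.81, 0.78 and 0.40.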

How the results depend on the processing

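No named difference reversed under the alternatives run on genes. With each probe set on its own, 1 of 5 probe sets of Hmgcs1 was called in the opposite direction (range -0.38 to 0.48). The count of 5199 genes became 3123 with all 60 arrays in the fit, 9785 with every probe set on its own (of 25312) and 178 with a 2-fold minimum, and 4418 to 4861 without 1 replicate. No normalization gave 4192 and kept 56.8% of calls on the higher side against 51.2%. The count of 3425 genes changed with time became 1994 without normalization and 1434 with all 60 arrays, and 2875 to 3400 without 1 replicate. At 0.1 µM the 10 genes became 5 without a filter, 47 with all 60 arrays, and 1 with only the 6 arrays. Without BaP replicates 1, 2 and 3 they became 6, 5 and 4, and without MCA replicates 1, 2 and 3 they became 3, 4 and 5. With the replicate number as a block the counts were 6169 at 120 h, 4607 for the change with time (whose 24 h numbers did not pair) and 94 at 0.1 µM, and beside the calls given above with that block only Scd1 and Hspa5 changed their call among named genes. The cause of these shifts was not tested, apart from the fewer arrays or other features that a setting holds.

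For named genes at 120 h, 3338 results under the alternatives kept their call, 141 lost it (102 of them at the 2-fold minimum) and 15 gained it. Alternatives for chromosome medians and list counts, and the TGANTCA search, were chosen after seeing the data. The medians of chromosomes 5, 6, 7, 8, 12, 14, 15, 16, 17 and 19 kept their sign in all, with chromosome 12 at -0.229 to -0.118 and chromosome 17 at 0.066 to 0.180. Genes near or below the array median are limited by signal over background, and their fold changes depend on the added 16.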
